A study of Saccharomyces cerevisiae with 8 samples.

Results

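The 10 translation factor transcripts described here encode the abundant elongation factors of budding yeast (*TEF1*, *TEF2*, *EFB1*, *TEF4*, *EFT1*, *EFT2*, *YEF3*, *HYP2*) and the initiation factor eIF4A (*TIF1*, *TIF2*). Their systematic names are YPR080W (*TEF1*), YBR118W (*TEF2*), YAL003W (*EFB1*), YKL081W (*TEF4*), YOR133W (*EFT1*), YDR385W (*EFT2*), YLR249W (*YEF3*), YEL034W (*HYP2*), YKR059W (*TIF1*) and YJL138C (*TIF2*). They were chosen by name and not by a rule on their values, though with earlier results of these data known. They were 10 of the 5753 open reading frame transcripts (ORF-Ts) and of the 10054 transcripts in the table. Total RNA was sequenced from *rrp6Δ* cells, which lack *RRP6*, and from wild type (WT) cells, with 4 biological replicates of each strain. The *rrp6Δ* strain was a single deletion strain of the yeast knockout collection, and both strains were isogenic to the same laboratory background and were grown in rich glucose medium to an OD600 of 0.8. Rrp6 is the nuclear exonuclease of the RNA exosome, which trims the 3′ ends of small nucleolar RNAs (snoRNAs) and degrades cryptic transcripts.

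Elongation factors carry out the repeated steps of translation once a ribosome has started on an mRNA. eEF1A (*TEF1* and *TEF2*) brings each aminoacyl-tRNA to the ribosome as a GTP complex, and eEF1B reloads it with GTP through its catalytic alpha subunit (*EFB1*) and its gamma subunit (*TEF4*). eEF2 (*EFT1* and *EFT2*) moves the ribosome along by a codon, the ATPase eEF3 (*YEF3*), which yeast needs, clears the used tRNA, and eIF5A (*HYP2*), which carries the modified residue hypusine, helps where peptide bonds form slowly. eIF4A (*TIF1* and *TIF2*) is the RNA helicase that unwinds mRNA for the scanning ribosome. Their genes, like those of ribosomal proteins, are strongly expressed in growing yeast.

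Total counts per library lay between 8761140 and 12666126 in *rrp6Δ* and between 6904004 and 11298227 in WT, and a translation factor transcript had between 490 and 139592 counts in a library. The deleted gene *RRP6* (YOR001W) had 60, 31, 42 and 16 counts in the *rrp6Δ* libraries, against 1787, 1030, 754 and 660 in the WT libraries. Below, a transcript is called where it changed by 1.5-fold or more with p under 0.05 and FDR up to 0.1 in edgeR's quasi-likelihood test, with Benjamini-Hochberg adjustment over all 10054 transcripts. A normalized count is the CPM value with the library size scaled by TMM, the trimmed mean of M-values, over all transcripts. Each value is therefore relative to the rest of the sequenced RNA, so less of an mRNA per cell and more of other RNA per cell cannot be told apart.

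Of the 10 genes, 6 form pairs of near-identical copies, and stretches in which their coding sequences differ are shown because within the coding sequence only these tell the copies apart. The coding sequences of *TEF1* (chromosome XVI, 700594 to 701970, plus strand) and *TEF2* (chromosome II, 477671 to 479047, plus strand) differ at 2 of 1377 bases. Those of *EFT1* (chromosome XV, 575098 to 577626, plus strand) and *EFT2* (chromosome IV, 1243230 to 1245758, plus strand) differ at 4 of 2529 bases, and those of *TIF1* (chromosome XI, 554987 to 556174, plus strand) and *TIF2* (chromosome X, 153504 to 154691, minus strand) at 6 of 1188 bases. *HYP2* (chromosome V, 85676 to 86149, plus strand) is less like its paralog *ANB1*, from which it differs at 43 of 474 bases. For each pair a window of 30 coding bases with the most differences is given, 5′ to 3′ from RefSeq assembly R64, with the differing bases in capitals.
TEF1, coding bases 747 to 776: agatgtttacaagatTggtggtattggtac
TEF2, coding bases 747 to 776: agatgtttacaagatCggtggtattggtac
EFT1, coding bases 432 to 461: acaagctttgggtgaAagaatcaagcctgt
EFT2, coding bases 432 to 461: acaagctttgggtgaGagaatcaagcctgt
TIF1, coding bases 212 to 241: gtaagaccggtacCttTtccattgctgctt
TIF2, coding bases 212 to 241: gtaagaccggtacTttCtccattgctgctt
HYP2, coding bases 282 to 311: CattgatgaCggTtTcttgtcTttgatgaA
ANB1, coding bases 282 to 311: TattgatgaTggCtActtgtcCttgatgaC

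Of all stretches of 75 bases in the annotated transcripts, 75 being the length of the sequenced reads, 79.5% in *TEF1* and 81.8% in *TEF2* also occur elsewhere in the genome. The shares were 80.3% in *EFT1*, 81.3% in *EFT2*, 70.3% in *TIF1* and 64.4% in *TIF2*. No such stretch of *EFB1*, *TEF4*, *YEF3* or *HYP2* occurs at more than 1 place. Reads of the 3 pairs could therefore mostly not be assigned to 1 copy, the rule by which the authors' mapping placed them is not given in the sources used here, and values of the single copies are uncertain.

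The other feature of sequence on which the results turn is that *EFB1* and *TEF4* each hold a C/D box snoRNA in their intron, snR18 in *EFB1* and snR38 in *TEF4*. C/D box snoRNAs guide 2′-O-methylation of ribosomal RNA. The mature snoRNA is cut out of the intron, so its reads are counted on its own row and again on the row of the host transcript. The ends of the *TEF4* intron and the ends of snR38 within it are shown on the plus strand of chromosome XI, with the splice signals and the C and D boxes in capitals.
TEF4 5′ splice site, chrXI:283087-283116: aattttattGTATGTtccatattttatttt
snR38 start with C box, chrXI:283185-283214: cataATGATGAaaaaaaattttatcaaaca
snR38 end with D box, chrXI:283250-283279: tctcatatgttgatatttgtatttCTGAta
TEF4 branch site, chrXI:283356-283385: aaggattgtttTACTAACatttcttcaatt
TEF4 3′ splice site, chrXI:283401-283430: atcgagatgatgtatattTAGtggctaatc

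The corresponding stretches of the *EFB1* intron and of snR18 lie on the plus strand of chromosome I and carry the same signals, so the host rows of the 2 eEF1B subunits are built alike.
EFB1 5′ splice site, chrI:142245-142274: cattgaaggGTATGTtccgatttagtttac
snR18 start with C box, chrI:142367-142396: gtgaATGATGAatttaattctttggtccgt
snR18 end with D box, chrI:142439-142468: agatgtggttgactatcacagtatCTGAcg
EFB1 3′ splice site, chrI:142599-142628: ttgtttctccttttaaaaTAGtactgctgt

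Per length, *YEF3* and the eEF1A genes were among the most abundant ORF-Ts in both strains. The level is given as normalized count per kb of spliced transcript, after the counts of the mature snoRNAs had been taken off, as mean ± SD over 4 libraries. For the copies of the eEF1A, eEF2 and eIF4A pairs it depends on how shared reads were placed, which is not known. Their levels and ranks beside single-copy genes are therefore uncertain. *YEF3* had 2882 ± 341 per kb in *rrp6Δ* and 3689 ± 696 in WT, and *TEF1* had 2933 ± 146 in *rrp6Δ* and 3492 ± 406 in WT, so these 2 did not differ beyond their spread in either strain. *TEF2* followed at 1800 ± 521 per kb in *rrp6Δ* and 2360 ± 406 in WT. The median ORF-T stood at 20.8 per kb in *rrp6Δ* and 24.7 in WT.

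The eEF1B subunits were less abundant than eEF1A, with 630 ± 141 per kb in *rrp6Δ* and 751 ± 129 in WT for *EFB1*, and with 218 ± 39.7 in *rrp6Δ* and 258 ± 87.0 in WT for *TEF4*. The *TEF4* level still holds intron reads past the end of snR38, described below. These were equal to 34.0 to 63.9% of the remaining counts in *rrp6Δ* and to 5.08 to 16.4% in WT, so the level overstates the spliced mRNA, more so in *rrp6Δ*. *HYP2* (386 ± 86.5 in *rrp6Δ*, 554 ± 124 in WT) and *TIF1* (259 ± 44.6 in *rrp6Δ*, 367 ± 58.3 in WT) lay between *EFB1* and *TEF4*, and the libraries of *HYP2* and *TIF1* overlapped. The eEF2 genes had 116 ± 30.1 per kb in *rrp6Δ* and 169 ± 63.7 in WT for *EFT2*, and 82.4 ± 26.7 in *rrp6Δ* and 109 ± 32.4 in WT for *EFT1*, and their libraries overlapped as well. *TIF2* was the lowest at 49.6 ± 12.2 per kb in *rrp6Δ* and 72.4 ± 17.9 in WT. The order of the 10 ran over a wide range in both strains. *TIF2* was at rank 1438 of the 5753 ORF-Ts in *rrp6Δ* and 1195 in WT, and *YEF3* at rank 13 in *rrp6Δ* and 15 in WT. The ranks of *TIF2* and the other paired copies are uncertain, since the placement of their shared reads is not known. All ranks are beside ORF-Ts whose length included any intron.

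The question of the comparison between strains was whether the translation factor mRNAs move with the loss of *RRP6*, and whether they do so as the ribosomal protein mRNAs do. Of the 10 factors 1 was lower in *rrp6Δ* past the thresholds, *TIF2*, against 14.3% of all ORF-Ts. None was higher in edgeR's quasi-likelihood test, against 2.09% of ORF-Ts; none was higher at an unadjusted p under 0.05 either, and DESeq2 called none. All 10 fold changes were below 0, with a median log2 fold change of -0.44, beside a median of -0.32 over all ORF-Ts, of which 85.7% were below 0. At an unadjusted p under 0.05 there were 3, *TIF1*, *TIF2* and *HYP2*, beside 24.3% of ORF-Ts. Between libraries of the same replicate number, 8 of the 10 were lower in *rrp6Δ* in all 4 pairs, as were 46.4% of ORF-Ts, and *TEF2* and *YEF3* were lower in 3 of 4.

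**Figure D1:**
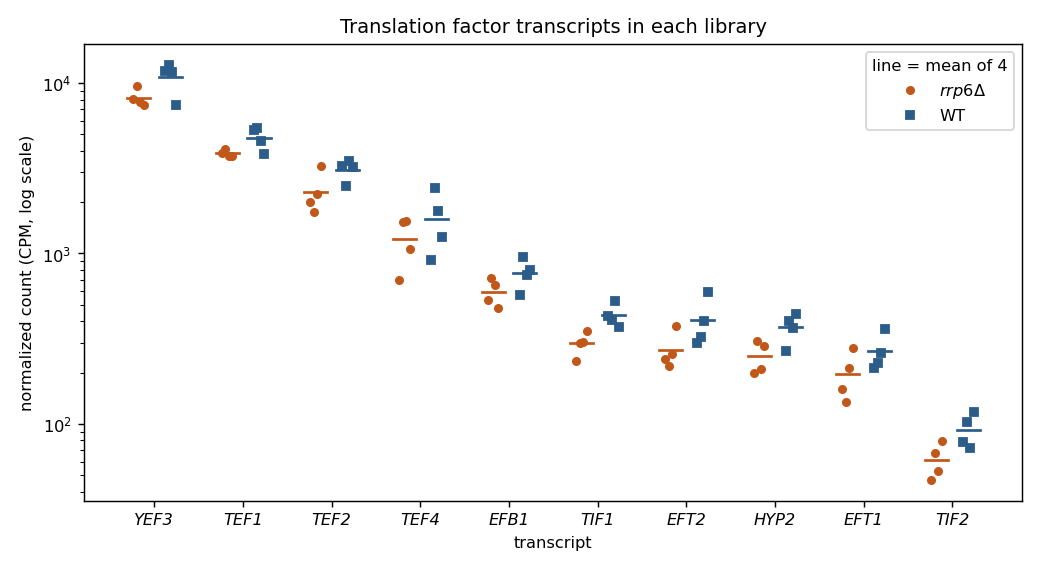
Normalized count (CPM, log axis) of each translation factor transcript in the 4 *rrp6Δ* libraries (circles, left) and the 4 WT libraries (squares, right), with the mean of 4 as a line. The strains overlap for every factor except *TIF1*, whose *rrp6Δ* libraries lie between 232 and 352 and whose WT libraries lie between 373 and 525.

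Of the genes for the GTPase eEF1A, *TEF1* had 3909.8, 4108, 3726 and 3719 normalized counts in *rrp6Δ* replicates 1 to 4, against 5273, 5433, 4547 and 3810 in WT replicates 1 to 4. The *rrp6Δ* libraries lay close together and overlapped the WT range only through WT replicate 4, the low one of its strain, and the log2 fold change was -0.30 (SE 0.26, FDR = 0.378). *TEF2* had 2012, 1742, 2233 and 3252 in *rrp6Δ*, against 3244, 2472, 3509 and 3214 in WT, with a log2 fold change of -0.43 (SE 0.27, FDR = 0.251). The high *rrp6Δ* library of *TEF2* was replicate 4, which lay above 3 of the 4 WT libraries, while WT replicate 2 was the low one of its strain. Neither eEF1A gene was called.

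The rows of the exchange factor eEF1B, here with the snoRNA counts still in them, overlapped between strains as well. *EFB1* had 536, 721, 649 and 477 normalized counts in *rrp6Δ*, against 568, 953, 748 and 798 in WT, with a log2 fold change of -0.36 (SE 0.24, FDR = 0.255). *TEF4* had 700.5, 1539, 1556 and 1067 in *rrp6Δ*, against 909.7, 2421, 1784 and 1251.5 in WT, with a log2 fold change of -0.39 (SE 0.35, FDR = 0.403). The *TEF4* libraries spread more than 2-fold within each strain, and replicate 1 was the lowest in both.

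For the translocase eEF2, *EFT1* had 160.5, 135, 211 and 277 normalized counts in *rrp6Δ*, against 214, 228, 260.1 and 363 in WT (log2 fold change -0.44, SE 0.26, FDR = 0.216). *EFT2* had 239, 219.9, 257 and 375 in *rrp6Δ*, against 299.6, 325, 399 and 597 in WT (log2 fold change -0.57, SE 0.27, FDR = 0.125). In both strains replicate 4 was the highest library for both copies, and *rrp6Δ* replicate 4 overlapped the WT range. Both copies were lower in all 4 same-numbered pairs. In the fit blocked by replicate number the FDR was 0.0184 for *EFT1* (-0.46, SE 0.15) and 0.00825 for *EFT2* (-0.55, SE 0.15) in edgeR, still short of 1.5-fold. Over the 10 factors the FDR of that edgeR fit ran from 0.00235 (*TIF2*) to 0.241 (*TEF1*), and 46.6% of ORF-Ts were at an unadjusted p under 0.05. *YEF3*, the source of 43.0 to 51.2% of the counts of the 10 factors in *rrp6Δ* and of 40.3 to 51.1% in WT, had 8036, 9574, 7756.5 and 7461 normalized counts in *rrp6Δ*, against 11810, 12812, 11570 and 7394 in WT (log2 fold change -0.41, SE 0.30, FDR = 0.317). The low WT library was replicate 4, which lay below all 4 *rrp6Δ* libraries, while the other 3 WT libraries lay above them.

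*HYP2* had 198, 307, 210.1 and 285 normalized counts in *rrp6Δ*, against 269, 401, 364 and 443 in WT. Only WT replicate 1 fell within the *rrp6Δ* range, and the log2 fold change was -0.56 (SE 0.23, FDR = 0.0857), short of 1.5-fold. Without WT replicate 1 it was called at -0.65 (FDR = 0.0720, edgeR), and without *rrp6Δ* replicate 2 at -0.68 (FDR = 0.0678). The share of ORF-Ts called in these fits is not given here.

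The genes of the helicase eIF4A included the called factor. *TIF1* had 232, 298, 303 and 352 normalized counts in *rrp6Δ*, against 428, 406, 525 and 373 in WT, and was the only factor of the 10 whose strains did not overlap, against 13.8% of ORF-Ts that were lower without overlap. Its log2 fold change was -0.55 (SE 0.21, FDR = 0.0682), which is 1.46-fold and short of the fold threshold. *TIF2* had 46.8, 67.3, 53.0 and 79.6 in *rrp6Δ*, against 78.1, 103, 72.5 and 117 in WT. The 2 strains overlapped through *rrp6Δ* replicate 4 and WT replicates 1 and 3, and the log2 fold change was -0.59 (SE 0.22, FDR = 0.0681), just past the threshold of 0.585 on that scale. The *TIF2* call was lost without *rrp6Δ* replicate 1 or 3 or WT replicate 2 or 4, with a log2 fold change between -0.69 and -0.37 over all 8 libraries left out in turn. It was also lost with DESeq2 and, as given below, with other scalings, so the count of 1 of 10 changed with the settings. Without *rrp6Δ* replicate 4, *EFT2* (-0.73, FDR = 0.0776, edgeR) and *TIF1* (-0.59, FDR = 0.0735, edgeR) were called along with it. The share of ORF-Ts called in that fit is not given here, so a shift of all ORF-Ts cannot be told apart.

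The size of every change depended on what the libraries were scaled to. With TMM factors from ORF-Ts alone, the median of all ORF-Ts moved up by 0.31 on the log2 scale, to -0.01, and the log2 fold changes of the 10 factors then lay between -0.27 (*TIF2*, SE 0.22) and 0.01 (*TEF1*, SE 0.27). Under that scaling edgeR called none of the 10 lower, against 2.59% of ORF-Ts, and none higher, against 3.93%. None was at an unadjusted p under 0.05, and *TEF1* changed sign. With library totals alone the range was -0.26 to 0.07, none was called and none was at an unadjusted p under 0.05, and *TEF1*, *EFB1* and *TEF4* were above 0. As a share of ORF-T counts, which needs no scaling between libraries, the 10 factors together took 3.51 to 4.16% in *rrp6Δ* and 3.21 to 4.24% in WT. The *rrp6Δ* range lay inside the WT range, with the mature snoRNA counts of the *EFB1* and *TEF4* rows still included. With these taken off, the share was 3.33 to 3.88% in *rrp6Δ* and 3.03 to 3.87% in WT. The ranges then still overlapped, but the *rrp6Δ* range no longer lay inside that of WT.

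**Figure D2:**
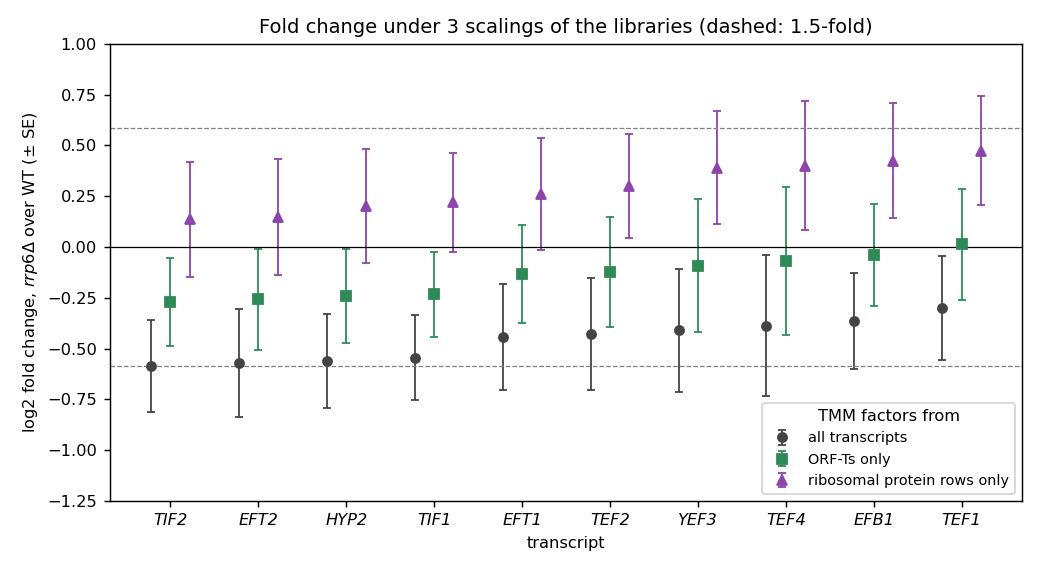
Log2 fold change (*rrp6Δ* over WT, ± SE) of the 10 factors with TMM factors from all transcripts (circles), ORF-Ts only (squares) and ribosomal protein transcripts only (triangles); the dashed lines mark 1.5-fold. Values run from -0.59 to -0.30 with all transcripts, from -0.27 to 0.01 with ORF-Ts and from 0.14 to 0.47 with ribosomal protein transcripts.

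The ribosomal protein mRNAs, whose products form the ribosome on which these factors act, are the list against which the factors were to be read. Of 136 ribosomal protein transcripts 115 were lower in *rrp6Δ* past the thresholds and 2 were higher, with a median log2 fold change of -0.78. Their values ran from -2.05 (*RPS22B*, whose row also holds a snoRNA) to 1.25 (*RPS14B*). The median of the 10 factors was 0.35 higher than that on the log2 scale, and its difference from the median of all ORF-Ts was -0.12. The fold change of each factor was above that of 121 (*TIF2*) to 132 (*TEF1*) of the 136 ribosomal protein transcripts. Strains did not overlap, with *rrp6Δ* lower, for 81 of the 136, for 1 of the 10 factors and for 13.8% of ORF-Ts. The share of ORF-T counts taken by ribosomal protein transcripts was 12.9 to 16.0% in *rrp6Δ* and 15.5 to 22.8% in WT. Here snoRNA counts on host rows were still included. The *RPS22B* row had 14143 to 18531 counts in *rrp6Δ* and 26326 to 60286 in WT, so part of the difference can be snoRNA.

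With the libraries scaled to the ribosomal protein transcripts themselves, all 10 factors were above 0, between 0.14 (*TIF2*, SE 0.28) and 0.47 (*TEF1*, SE 0.27), with a median of 0.28 beside 0.44 for all ORF-Ts. edgeR called none of them in this scaling, where 22.4% of ORF-Ts were called higher and 0.261% lower, and none was at an unadjusted p under 0.05. Without WT replicate 2 there was 1, *TEF4*, whose row holds snR38. With the replicate number as a block 5 of the 10 were at an unadjusted p under 0.05 in edgeR, as were 50.6% of ORF-Ts, and none was called. The SE of the log2 fold changes of the 10 factors in this scaling was between 0.24 and 0.32 without the block. It was between 0.14 (*YEF3*) and 0.19 (*EFB1*) with the block.

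**Figure D3:**
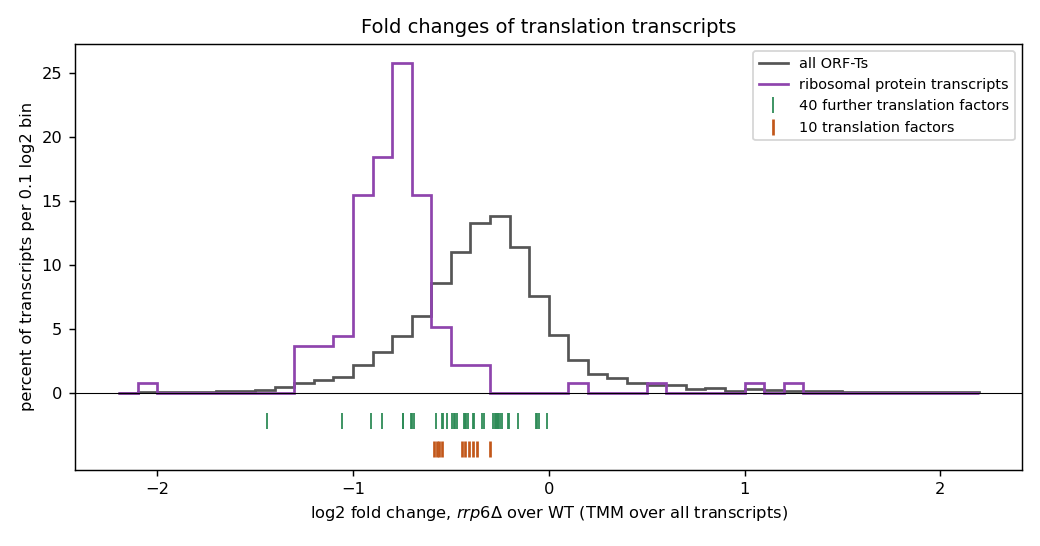
Log2 fold changes (*rrp6Δ* over WT) of all ORF-Ts and of the 136 ribosomal protein transcripts as percent of transcripts per 0.1 log2 bin, with the 10 factors and 40 further translation factors as ticks below; 36 ORF-Ts lie outside the axis. The 10 factors run from -0.59 to -0.30, and all but *TEF1* lie between the medians of all ORF-Ts (-0.32) and of the ribosomal protein transcripts (-0.78).

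Between 15.6 and 38.3% of the counts on the *EFB1* row, and between 61.0 and 87.5% of those on the *TEF4* row, were counts of the mature snoRNA in the intron. For *TEF4* the snR38 counts were 7750, 11490, 17099 and 8101 in *rrp6Δ*, against 7665, 16840, 9936 and 5346 in WT. Taking them off left 3730, 3321, 3505 and 3042 counts for the rest of the row in *rrp6Δ*, against 3088, 2415, 2113 and 3423 in WT. Most of what the *TEF4* row counted was thus snoRNA in every library. Neither mature snoRNA was called, with log2 fold changes of -0.42 (SE 0.41) for snR38 and -0.56 (SE 0.32) for snR18.

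After the mature snoRNA counts had been taken off all host rows, the log2 fold change was -0.25 (SE 0.23, FDR = 0.421, edgeR) for *EFB1* and -0.24 (SE 0.25, FDR = 0.488) for *TEF4*. The normalized counts then lay between 413 and 698 in *rrp6Δ* and between 529 and 782 in WT for *EFB1*, and between 261 and 403 in *rrp6Δ* and between 288 and 579 in WT for *TEF4*. With this step none of the 10 factors was called by edgeR, where 11.3% of ORF-Ts were called lower and 2.33% higher, 3 were at an unadjusted p under 0.05, and *TIF2* was at -0.54. With TMM factors from ORF-Ts after the same step, *EFB1* (0.02) and *TEF4* (0.05) were above 0.

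Reads past the 3′ end of a snoRNA, which the authors annotated as an extended transcript (ET), also lie on the host rows. The snR38 ET, which begins at the base after the snR38 row and ends within the *TEF4* intron, had 1268, 2123, 1631 and 1297 counts in *rrp6Δ*, against 212, 334, 346 and 174 in WT. Every *rrp6Δ* library was above every WT library, and the log2 fold change was 2.01 (SE 0.37, FDR = 0.0018, edgeR). The snR18 ET was not called, with a log2 fold change of -0.02 (SE 0.36).

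Per 100 counts of the mature snoRNA, the snR38 ET had 15.1 ± 3.86 counts in *rrp6Δ* and 2.87 ± 0.663 in WT (SD, n = 4 each), and the snR18 ET had 53.2 ± 8.504 in *rrp6Δ* and 35.5 ± 8.47 in WT. The snR18 ET overlaps the end of mature snR18 and shares reads with it. Both ratios had a two-sided exact permutation p of 0.0286, the smallest that 4 against 4 allows, and an adjusted p of 0.0571 over the 4 comparisons made of this kind. The share of the mature snoRNA in the host row was the other measure, at a mean of 75.2% in *rrp6Δ* and 75.5% in WT for *TEF4*, and of 22.7% in *rrp6Δ* and 25.1% in WT for *EFB1*, with exact p of 1 and 0.743.

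The snR38 ET counts were equal to 34.0 to 63.9% of the non-snoRNA counts of the *TEF4* row in *rrp6Δ*, and to 5.08 to 16.4% in WT. Taking the ET off as well left 2462, 1198, 1874 and 1745 counts in *rrp6Δ*, against 2876, 2081, 1767 and 3249 in WT. The *TEF4* log2 fold change was then -1.08 (SE 0.24, FDR = 0.0054, edgeR), which was a call, and in this setting 14.3% of ORF-Ts were called lower and 2.12% higher. A read that spans mature snR38 and its ET can be counted on both and is then removed from the row once too often, so -1.08 is not a value of the *TEF4* mRNA either. For *EFB1* the same step gave -0.35 (SE 0.26, FDR = 0.323). The *TEF4* value therefore ran from -0.24 to -1.08 between these settings, which also differed in scaling. Mature snoRNA counts alone were taken off ORF-Ts and Nrd1-unterminated transcripts (NUTs). With the ET, counts were taken off ORF-Ts only, so the TMM factors were not the same. *TEF1*, which holds no snoRNA, was at -0.25 in the former setting and at -0.30 in the latter, so part of the range is scaling. Since the snR38 ET lies within the intron, extended snR38 and other RNA that holds the intron cannot be told apart by its counts. Reads on the exons alone were not analysed here.

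**Figure D4:**
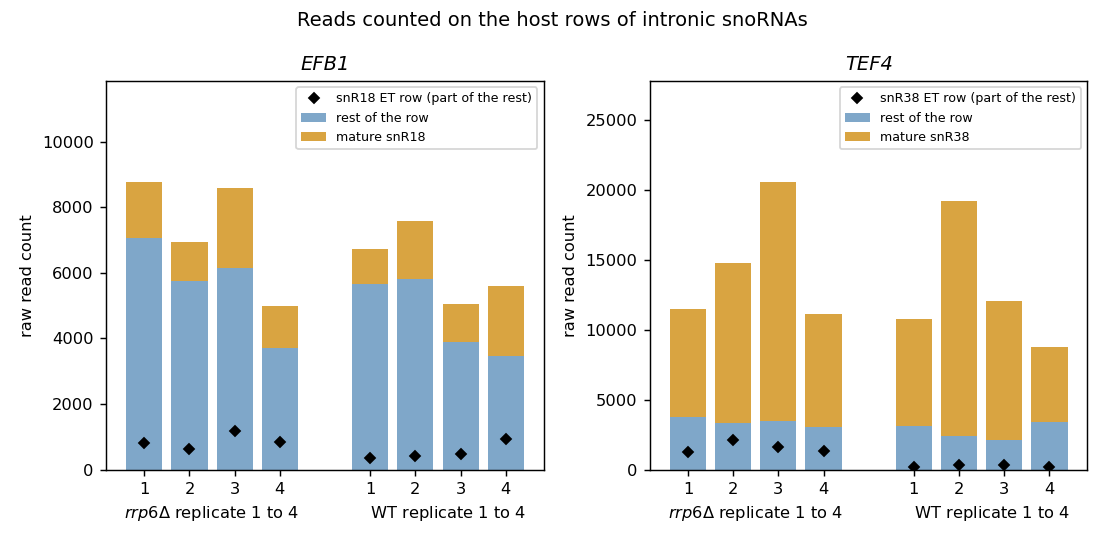
Raw read counts on the *EFB1* and *TEF4* rows in each library, split into mature snoRNA and the rest of the row, with the ET counts as diamonds. snR38 takes 61.0 to 87.5% of the *TEF4* row, and its ET has 1268 to 2123 counts in *rrp6Δ* libraries against 174 to 346 in WT libraries.

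Summing the copies of a pair removes the split of shared reads between them, provided that each shared read was counted once. Whether it was is not known, since the placement rule is not given. The eEF1A pair had 5920.5, 5851, 5957.5 and 6972 normalized counts in *rrp6Δ*, against 8521.5, 7900.5, 8056 and 7024 in WT, so that the strains did not overlap, at a log2 fold change of -0.35 (SE 0.27, FDR = 0.326, edgeR). The eIF4A pair had 279, 366, 356 and 432 in *rrp6Δ*, against 506, 508, 598 and 489.6 in WT, also without overlap, at -0.55 (SE 0.21, FDR = 0.0612). The eEF2 pair overlapped between strains, with 355 to 652 in *rrp6Δ* and 514 to 959 in WT, at -0.52 (SE 0.27, FDR = 0.165). No pair was called. None reached 1.5-fold, and the eEF1A and eEF2 pairs were also short of the FDR threshold. Of all ORF-Ts, 13.8% were lower in *rrp6Δ* without overlap between strains.

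The split of the reads within a pair varied more between libraries than between strains. *TEF1* had 1.14 to 2.36 counts per count of *TEF2* in *rrp6Δ* and 1.19 to 2.198 in WT, with replicate 2 the highest and replicate 4 the lowest in both strains. *TIF1* had 4.43 to 5.72 counts per count of *TIF2* in *rrp6Δ* and 3.18 to 7.24 in WT, and *EFT1* had 0.614 to 0.822 per count of *EFT2* in *rrp6Δ* and 0.608 to 0.715 in WT. The *TIF2* counts on which its call rests were between 648 and 831 in *rrp6Δ* and between 490 and 923 in WT.

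The *HYP2* transcript (chromosome V, 85615 to 86367) is crossed by other annotations. A transcript antisense to the dubious ORF YEL034C-A lies on the *HYP2* strand, shares 601 bases with it and had counts equal to 92.2 to 96.5% of those of *HYP2*, so that both rows largely count the same reads. YEL034C-A itself, on the opposite strand, had 44 to 65 counts in *rrp6Δ* and 7 to 45 in WT. YEL033W overlaps the 3′ end of *HYP2* on the same strand over 189 bases. It was called lower, as were 14.3% of ORF-Ts, with a log2 fold change of -0.62 (FDR = 0.0647, edgeR). Reads in the shared bases can be counted on both rows, so the YEL033W value is not separate from that of *HYP2*.

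For context, 40 further translation factors were read from a list of initiation, elongation and termination factors and their modifiers. Of these 8 were lower past the thresholds and none was higher in edgeR (none was higher at an unadjusted p under 0.05, and DESeq2 also called 8 lower and none higher), against the same 14.3% and 2.09% of ORF-Ts. Their median log2 fold change was -0.42, all 40 were below 0 as were 85.7% of ORF-Ts, and 14 (35%) were lower without overlap between strains, against 13.8% of ORF-Ts. With TMM factors from ORF-Ts only, 1 of the 8 was called, *ANB1*. With the libraries scaled to ribosomal protein transcripts, none of the 40 was called lower and 4 were called higher, against 0.261% and 22.4% of ORF-Ts. The 4 were the helicase *DED1* (0.80), the eIF2B subunit *GCD6* (0.74), the eIF3 subunit *PRT1* (0.73) and the eIF2 kinase *GCN2* (0.71), named after their values were seen.

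The largest decrease among the 8 was that of an eIF5A gene. *ANB1*, the paralog of *HYP2* that is expressed when oxygen is scarce, had 75, 19, 52 and 17 counts in *rrp6Δ*, against 116, 48, 72 and 48 in WT, which is 4.58, 1.97, 3.93 and 1.63 normalized counts against 9.81, 6.03, 10.7 and 6.85. All *rrp6Δ* libraries were below all WT libraries in normalized count, and the log2 fold change was -1.44 (SE 0.37, FDR = 0.0113). It was called in all 22 alternatives in which the libraries were not scaled to ribosomal protein transcripts, the only one of the factors named here to be so, and was not called with that scaling (-0.63, SE 0.42, FDR = 0.234, edgeR). Both enzymes that make hypusine on eIF5A were also called, deoxyhypusine synthase *DYS1* at -0.85 (SE 0.25, FDR = 0.0214) and deoxyhypusine hydroxylase *LIA1* at -0.70 (SE 0.21, FDR = 0.0228). *DYS1* had 48.0, 27.8, 54.7 and 50.3 normalized counts in *rrp6Δ*, against 69.1, 65.4, 79.5 and 112 in WT. *LIA1* had 32.1, 30.1, 34.6 and 34.0 in *rrp6Δ*, against 44.9, 43.2, 50.04 and 74.5 in WT. The *rrp6Δ* libraries of both enzymes lay below all their WT libraries. With TMM factors from ORF-Ts neither enzyme was called.

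The other calls were *SUI3*, the beta subunit of eIF2, which carries the initiator tRNA (-0.75, SE 0.21, FDR = 0.0171), the eIF3 subunit *TIF34* (-0.70, SE 0.19, FDR = 0.0166), the poly(A)-binding protein *PAB1* (-0.69, SE 0.19, FDR = 0.0158), the ribosome-bound *STM1* (-0.74, SE 0.25, FDR = 0.0384) and the helicase *DBP1* (-0.91, SE 0.38, FDR = 0.0944). *PAB1* had 229, 271, 211.5 and 226 normalized counts in *rrp6Δ*, against 342, 384, 359.6 and 423 in WT, and its strains did not overlap. *DBP1* was the only one of the 8 whose strains overlapped, and it was called in 9 of the 22 alternatives. Its call was lost without *rrp6Δ* replicate 1, 2 or 3 or WT replicate 1, 2 or 4, with a log2 fold change of -0.51 without WT replicate 4. Of the paralogs of the 10 factors, *CAM1*, the second eEF1B gamma gene, had a log2 fold change of -0.48 (SE 0.18, FDR = 0.0648) and did not overlap between strains, but was short of 1.5-fold. *HEF3*, the second eEF3 gene, had -0.41 (SE 0.26, FDR = 0.253), beside -0.41 for *YEF3*.

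**Figure D5:**
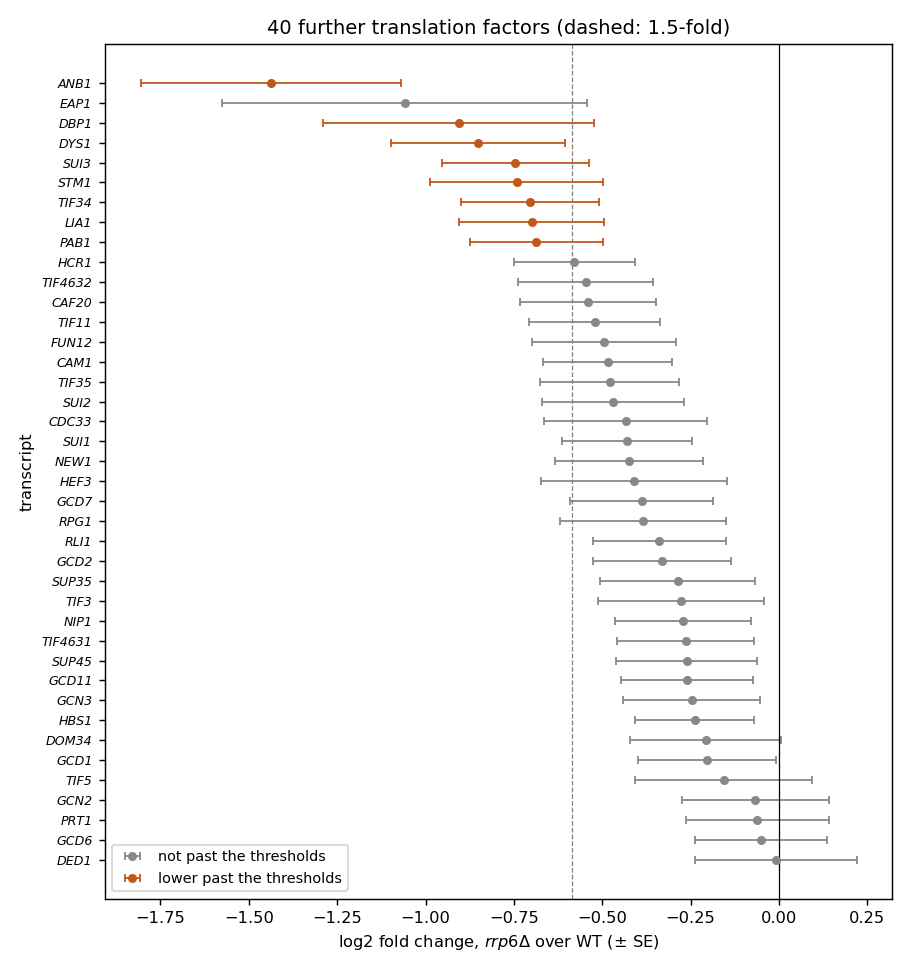
Log2 fold change (*rrp6Δ* over WT, ± SE, edgeR) of 40 further translation factors, ordered by value, with the 8 lower past the thresholds coloured and the dashed line at 1.5-fold. *ANB1* is the lowest at -1.44, and all 40 lie below 0.

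Across the 8 libraries the 10 factors did not share 1 profile. Over the 45 pairs of factors, Pearson's r of the log2 normalized counts lay between -0.17 and 0.95 with a median of 0.47, a description over 8 libraries that share strain, depth and replicate number. Of 4446 other ORF-Ts with a mean normalized count of at least 10, those most like the mean profile of the 10 factors were *CUE4* (r = 0.984), *SMT1* (0.972), *SMC1* (0.972), *ERV41* (0.965) and *GOT1* (0.959). None of the 5 is a ribosomal protein gene or one of the 40 further factors.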

How the data were processed

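After rRNA depletion the authors obtained single SOLiD reads of 75 bases that keep the strand, aligned these to the sacCer3 genome by bfast, and used bamutils to count reads on each annotated transcript. Of the 2 mappings the methods describe, the one behind the table is not named there. The deposited values analysed here are raw read counts per transcript and library, which are whole numbers without normalization. The authors also deposited normalized reads and their own edgeR comparison (log2 fold change, p-value, FDR), which were not used. Table coordinates are 1-based and match RefSeq R64, with 952 of 958 antisense transcripts at the coordinates of their ORF.

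The tests were run in edgeR 4.0.16 under R 4.3.3 (TMM over all transcripts, no filter, glmQLFit and glmQLFTest, no covariates). SEs of log2 fold changes were taken from the F statistic. Alternatives used DESeq2 1.42.0, edgeR's exact test, filters, other scalings, summed paralogs, snoRNA counts taken off, a replicate block and each library left out. There were 22 such alternatives, and 8 further combinations were chosen after seeing the data. The 10 transcripts, the lists and the tests were chosen with earlier results of these data known. The further factors come from general knowledge, and the ribosomal protein list is the study's, without 1 RNase P subunit. That list was examined on these samples and its direction is not independent evidence. Genes named were the 10, the further factors called, the paralogs of the 10, the lowest and highest ribosomal protein transcript, rows overlapping one of the 10, *RRP6* and the 5 ORF-Ts with the most similar profile. Profiles used log2 of normalized count plus 1.

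The numbers 1 to 4 pair the libraries by the data: with strain means removed, log2 values correlated at 0.330 to 0.520 between libraries of the same number and at -0.350 to 0.012 between others. Total counts, TMM factors of 0.735 to 1.37 and a common biological coefficient of variation of 0.302 set the precision. The procedure was tested on simulated data.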

Additional observations from a re-analysis of the deposited data

How the results depend on the processing

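Among the 10 factors, 1 was called lower as reported, and none was with DESeq2 or its size factors, TMM from ORF-Ts (with or without the replicate block), totals alone, TMM without sn/snoRNAs, ETs and NUTs (Nrd1-unterminated transcripts), filterByExpr, at least 10 counts in every library, snoRNA counts taken off, paralogs summed or an FDR of 0.05. It was 2 with snoRNA and ET counts taken off, and 0 to 3 with a library left out. The 2 were *TEF4* and *TIF2*, of which *TIF2* holds no snoRNA. That setting left the NUT rows unchanged, unlike the one with snoRNA counts alone taken off, so the scaling differed as well. No fold change past the thresholds changed sign. The replicate block kept the call of 1 (*TIF2*) and put 6 of 10 at an unadjusted p under 0.05 (46.6% of ORF-Ts), against 3 without it (24.3% of ORF-Ts). It changed no call among the 10.

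Ribosomal protein transcripts called lower (115) were 35 with TMM from ORF-Ts, 37 with the block as well, 18 with totals, 73 without sn/snoRNAs, ETs and NUTs, 27 with at least 10 counts, and 60 (without *rrp6Δ* replicate 1) to 112 with a library left out. The count was 74 without WT replicate 3. Further factors called lower (8) were 1, 2, 1, 4 and 1 in the same 5 settings, and 3 (without WT replicate 4) to 10 with a library left out. Of all ORF-Ts, 14.3% were called lower as reported, 2.59% with TMM from ORF-Ts, 4.68% with the block as well and 1.48% with totals. The shares of ribosomal protein transcripts were 84.6%, 25.7%, 27.2% and 13.2%. The ORF-T share in the remaining settings, among them each library left out, is not given here. Scaled to ribosomal protein transcripts, 0 to 1 of the 10 factors were called with a library left out. The median of the 10 factors minus that of the ribosomal protein transcripts lay between 0.25 and 0.38, and minus that of all ORF-Ts between -0.27 and -0.06, over all settings run. A factor had at least 490 counts in every library.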
